A study of Mus musculus with 6 samples.

Results

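The cell cycle genes described here are 39 genes of DNA replication and mitosis, measured in the gastrocnemius, a calf muscle, of mice that lack SPARC, a secreted glycoprotein of the extracellular matrix. A gene was included when a probe set of the array carried its symbol and no other, and the brightest such probe set stood for it. This gave 38 of the 39 genes, out of 19938 genes with such a probe set. The mitotic cyclin gene Ccnb1 had none and was not analysed here. The genes were 14 that act at the entry into S phase or in S phase itself and 24 that act in mitosis.

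The arrays came from 3 Sparc knockout (KO) males, labelled as a homogenous SPARC knockout, and 3 wild type (WT) males, all 12 weeks old, with 1 array for each sample. Both genotypes carry the strain label B6;129S-Sparctm1Hwe/J, a mixed B6 and 129S background, and nothing in the labels tells whether KO and WT mice shared litters. Total RNA of the whole muscle was hybridised to an Affymetrix whole-transcript array, and all values below are log2 of the deposited intensity. The study set out to compare metabolic gene expression between the genotypes, and the cell cycle genes were read from the same arrays.

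Cells divide in a fixed order. Cyclin E with its kinase and the E2F factors open S phase, the MCM helicase and PCNA copy the DNA, and cyclin A and cyclin B with CDK1 then drive mitosis. Muscle fibres are post-mitotic, so in adult muscle these transcripts are known mainly from satellite cells, from fibroblasts, vessel cells and blood-derived cells, and they are used as signs of proliferation in regenerating muscle. In RNA of a whole muscle, fewer cells of a type and less RNA per cell cannot be told apart.

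The labels were checked with Sparc itself. Its log2 intensity was 6.74, 6.46 and 5.83 in KO arrays 1, 2 and 3, against 11.80, 11.73 and 11.87 in WT arrays 1, 2 and 3. The log2 change was -5.46, with an SE of 0.20 and an adjusted p of 2.08e-05 in limma. All 10 muscle markers, among them Acta1, Ckm and Myh4, were above the filter for dim genes. The median intensity was 40.5 to 44.7 in KO arrays and 41.3 to 42.2 in WT arrays. Among the genes tested the median SD within a genotype was 0.163 in KO and 0.0912 in WT arrays, and among the cell cycle genes tested it was 0.199 in KO and 0.112 in WT arrays.

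Part of the cell cycle genes had a weak signal. A gene was called dim, and left out of the tests, when its mean over all 6 arrays was under 3.90, the value that 25% of the array's probe sets fell below. Bub1, a checkpoint kinase, and Cenpe, a kinetochore motor, fell under it with means of 3.14 and 3.45. Cdca8 and Prc1 lay just above it at 3.90 and 3.92, so 36 genes were tested. As a picture of background, 1194 olfactory and vomeronasal receptor genes, which are not known to act in muscle, had a median of 2.87 and a 95th percentile of 4.61. Of the cell cycle genes, 11 lay under that percentile, namely Bub1, Cenpe, Cdca8, Prc1, Ndc80, Kif20a, Birc5, Kif11, Nusap1, Cenpf and Top2a. All 11 belong to the mitotic group. Probe sets differ in how strongly they bind, so these positions describe how dim a reading is and do not rank transcripts.

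**Figure D1:**
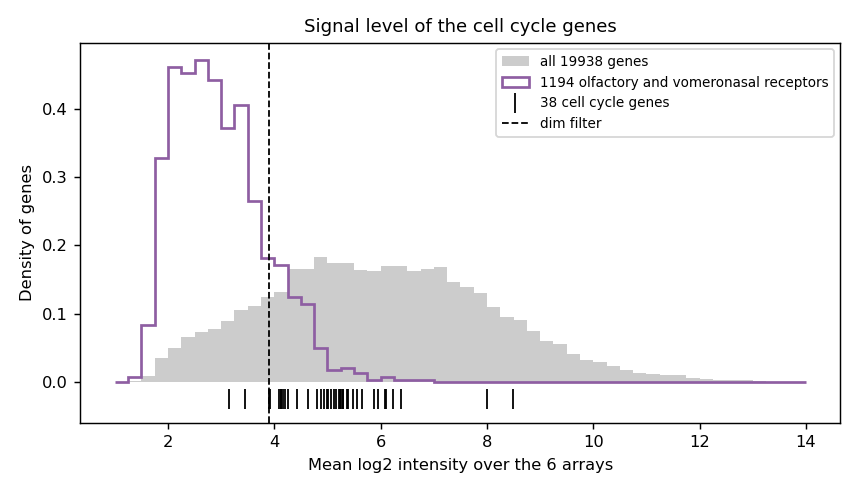
Density of genes (vertical axis) by mean log2 intensity over the 6 arrays (horizontal axis) for all 19938 genes (grey) and for 1194 olfactory and vomeronasal receptors (purple outline), with a tick for each of the 38 cell cycle genes and a dashed line at the dim filter of 3.90. The ticks of Bub1 and Cenpe lie left of the line, and those of 11 genes lie under the receptors' 95th percentile of 4.61.

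The promoters show how the S-phase and mitotic groups differ in sequence. Mitotic genes are known to carry a CHR element, often near CCAAT boxes that bind NF-Y, and S-phase genes are known for E2F sites. The RefSeq promoter table (build GRCm38.p6, 250 bases before to 50 after the start) held 34 promoters of 32 of these genes. The CHR letters TTTGAA or TTCGAA were looked for on both strands and were in 17 of 21 mitotic promoters (81.0%), against 2 of 13 S-phase promoters (15.4%) and 19.2% of all 32851 promoters. CCAAT on either strand was in 81.0% of mitotic and 69.2% of S-phase promoters, against 37.4% of all. The E2F letters TTTNNCGC, with C or G at each N, were on either strand in 1 of 21 mitotic promoters and 4 of 13 S-phase promoters, against 2.26% of all. These matches are letters in a window and were not tested for binding.

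The 200 bases before the start are shown for 4 genes whose values are described below, with motif matches in capitals. Mcm6 is from the S-phase group, and Cdk1, Ccnb2 and Mki67 are from the mitotic group. They are not typical in E2F matches, which 4 of 13 S-phase promoters held and, among 21 mitotic promoters, only that of Cdk1. ATTGG is a CCAAT box on the other strand. The Mcm6 stretch (chr1:128359706-128359905, minus strand) holds 3 E2F matches, of which a pair on opposite strands overlaps, and 2 CCAAT boxes. The Cdk1 stretch (chr10:69352913-69353112, minus strand) holds 2 CHR matches, 2 CCAAT boxes and 1 E2F match. The Ccnb2 stretch (chr9:70421555-70421754, minus strand) holds 3 CCAAT boxes and 1 CHR match. Another CHR match of Ccnb2 begins at position 5 after the start, outside the stretch shown. The Mki67 stretch (chr7:135716380-135716579, minus strand) holds 2 CHR matches and 3 CCAAT boxes.
Mcm6: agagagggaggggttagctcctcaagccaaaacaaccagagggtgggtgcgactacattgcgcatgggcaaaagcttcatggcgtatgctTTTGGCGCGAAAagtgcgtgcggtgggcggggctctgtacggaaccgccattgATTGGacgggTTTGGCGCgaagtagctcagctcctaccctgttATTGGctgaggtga
Cdk1: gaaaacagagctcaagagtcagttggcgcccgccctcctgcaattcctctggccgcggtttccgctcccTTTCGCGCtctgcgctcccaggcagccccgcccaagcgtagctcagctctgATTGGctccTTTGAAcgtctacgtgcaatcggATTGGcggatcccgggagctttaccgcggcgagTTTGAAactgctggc
Ccnb2: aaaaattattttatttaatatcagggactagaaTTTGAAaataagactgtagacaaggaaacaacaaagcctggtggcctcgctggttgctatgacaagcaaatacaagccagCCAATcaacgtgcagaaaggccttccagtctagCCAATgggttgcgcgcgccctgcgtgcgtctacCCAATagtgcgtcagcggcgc
Mki67: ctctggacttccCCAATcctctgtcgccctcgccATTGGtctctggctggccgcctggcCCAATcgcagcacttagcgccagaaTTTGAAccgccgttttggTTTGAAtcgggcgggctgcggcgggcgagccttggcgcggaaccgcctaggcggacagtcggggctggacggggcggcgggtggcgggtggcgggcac

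No cell cycle gene passed the test between the genotypes. By limma over all 16487 genes tested, with a Benjamini-Hochberg adjusted p under 0.05, 0 of the 36 genes tested were higher and 0 were lower in KO muscle. Of all genes tested, 0.995% were called, 0.321% higher and 0.673% lower. The smallest adjusted p among the cell cycle genes was 0.0753, for Mcm6. At an unadjusted p under 0.05, 2 genes were higher (Plk1 and Birc5), against 8.16% of all genes, and 2 were lower (Mcm6 and Ccne2), against 10.3% of all genes. The median log2 change of the 36 genes was 0.04, against 0.00 over all genes tested. The standard errors ran from 0.0889 to 0.20. The 95% intervals, such as -0.29 to 0.62 for Mki67, are for single genes, with no adjustment for the number of genes.

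The groups did not overlap in 7 genes tested. All 3 KO arrays lay above all WT arrays in Mcm7, Plk1, Birc5 and Top2a (11.1% of all genes tested did so), and below them in Ccne2, Mcm6 and Rrm1 (13.8% of all genes did so). Both shares of the 36 genes are near or below those of the whole array.

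**Figure D2:**
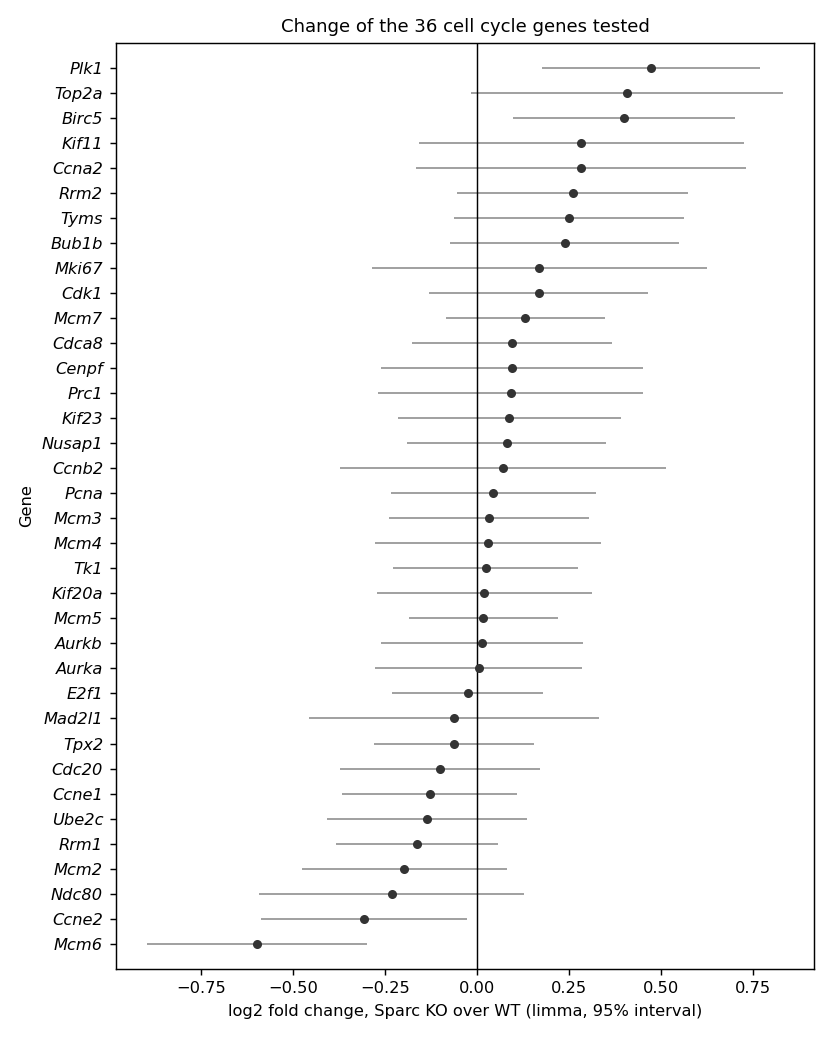
Log2 fold change of Sparc KO over WT (horizontal axis) for each of the 36 cell cycle genes tested (vertical axis), with the 95% interval of the limma fit as a bar. Only the intervals of Plk1, Birc5, Ccne2 and Mcm6 leave out 0, before any adjustment for the number of genes.

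The mean over all 38 genes, taken as each gene's distance from its WT mean, was -0.01, -0.01 and 0.17 in KO arrays 1, 2 and 3, against -0.01, -0.02 and 0.03 in WT arrays 1, 2 and 3. KO arrays 1 and 2 lay among the WT arrays, and KO array 3 lay above every other array. The difference of the group means was 0.05, and it was -0.01 without KO array 3. It was 0.02 over the 27 genes at or above the receptors' 95th percentile.

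The high mean of KO array 3 came from the mitotic genes. Their mean distance from the WT mean was 0.00, 0.04 and 0.28 in KO arrays 1, 2 and 3, against -0.03, -0.01 and 0.03 in the WT arrays. In the S-phase genes the same mean was -0.02, -0.10 and -0.02 in the KO arrays, against 0.01, -0.03 and 0.02 in the WT arrays. KO array 3 held the highest value of all 6 arrays in 16 of 24 mitotic genes and in 2 of 14 S-phase genes, against 21.2% of all genes tested. In 18 of the 24 mitotic genes KO array 3 read above every WT array, as 36.1% of all genes tested did in that array. Without KO array 3 the mitotic mean difference was 0.02, against 0.11 with it. The array was singled out after its values were seen, so these counts are a description of 1 sample.

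**Figure D3:**
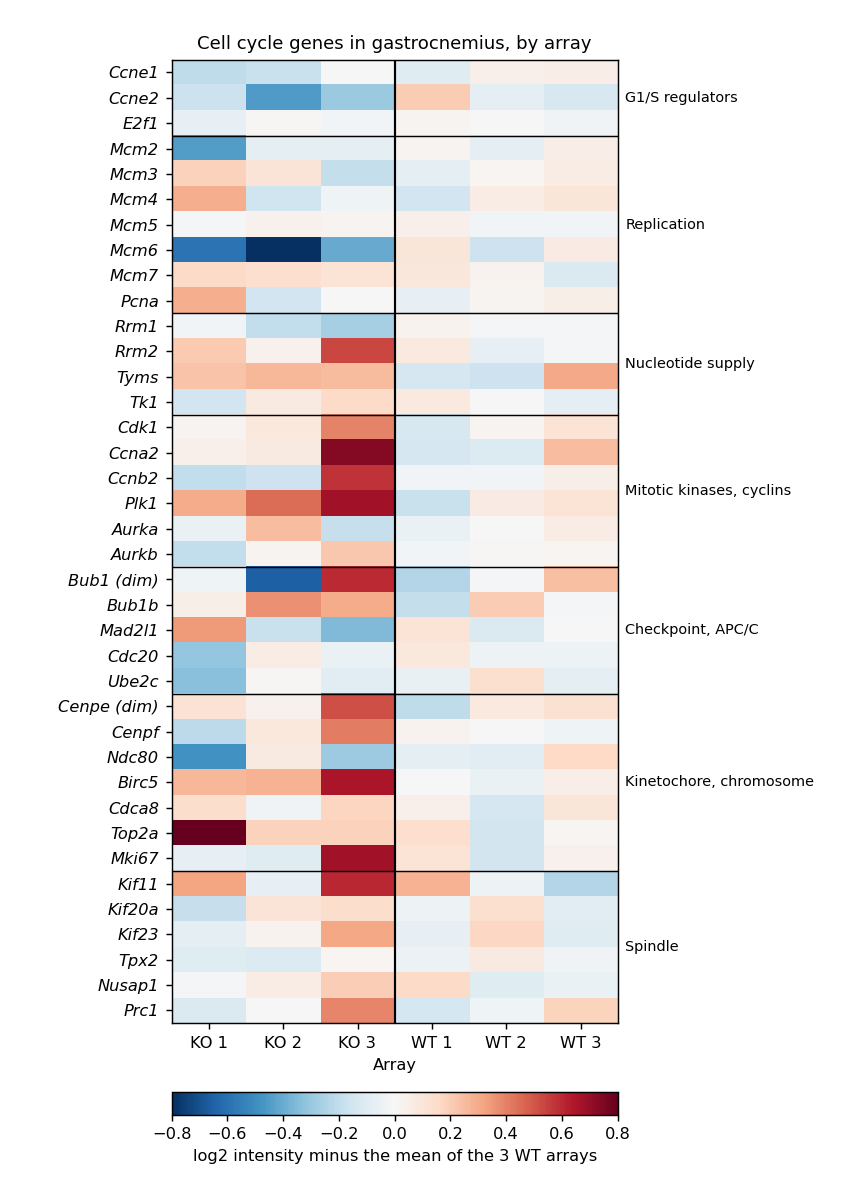
Log2 intensity minus the mean of the 3 WT arrays (colour, red above and blue below) for the 38 cell cycle genes (rows, in role groups) in each KO and WT array (columns), with colours capped at 0.8 either way. In KO array 3 most rows from Cdk1 down are red, while Mcm6 is blue in all 3 KO arrays.

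Among the genes that open S phase, the cyclin E genes and E2f1 had negative changes. Ccne2, a cyclin E, read 6.09, 5.81 and 5.96 in KO arrays, against 6.46, 6.18 and 6.13 in WT arrays. All KO values lay below the WT values, KO array 1 close to WT array 3. Its log2 change was -0.31 ± 0.12 (SE; limma adjusted p = 0.233). Ccne1, the other cyclin E, had a change of -0.13 with a 95% interval of -0.37 to 0.11. E2f1, a transcription factor that switches on S-phase genes, varied little, between 5.17 and 5.24 in KO arrays and between 5.21 and 5.26 in WT arrays.

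The MCM genes, whose products form the helicase that opens DNA at replication origins, did not change together. Mcm6 read 4.87, 4.66 and 5.06 in KO arrays, against 5.56, 5.30 and 5.52 in WT arrays. Every KO value lay below every WT value, and the mean was 1.51-fold lower (log2 change -0.60 ± 0.13 SE, adjusted p = 0.0753 in limma). Mcm2 read 5.89, 6.27 and 6.26 in KO arrays, against 6.36, 6.26 and 6.39 in WT arrays. Only KO array 1 lay clearly apart there, and the change was -0.20 with a 95% interval of -0.48 to 0.08. Mcm7 was higher in all KO arrays, at 5.97, 5.95 and 5.93, against 5.91, 5.85 and 5.70 in WT arrays, with a change of 0.13 (limma adjusted p = 0.521). Mcm3, Mcm4 and Mcm5 had changes of 0.03, 0.03 and 0.02. The 6 subunits act as 1 ring, and here Mcm6 alone had a change beyond 0.20 in size, a difference between subunits that was not itself tested.

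Pcna, the sliding clamp that holds DNA polymerase on its template, read 8.75, 8.31 and 8.46 in KO arrays, against 8.40, 8.49 and 8.51 in WT arrays. KO array 1 was the highest of the 6 and KO array 2 the lowest, and the change of 0.04 had a 95% interval of -0.23 to 0.32. Its probe set and that of Tk1, thymidine kinase, sit by number among probe sets of genes on chromosomes 19 and 8, while Pcna and Tk1 lie on chromosomes 2 and 11. Each gene has another probe set with neighbours on its own chromosome, with changes of 0.04 and 0.01, against 0.04 and 0.02 in the probe sets used.

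Of the genes that supply nucleotides, Rrm1 and Rrm2 encode the large and small subunits of ribonucleotide reductase. Rrm1 read 8.05, 7.88 and 7.81 in KO arrays, against 8.10, 8.06 and 8.07 in WT arrays. KO array 1 came close to the WT arrays without overlapping them, and the change was -0.16 ± 0.10 (SE; limma adjusted p = 0.412). Rrm2, the S-phase-limited subunit, had 5.07, 4.90 and 5.40 in KO arrays, against 4.94, 4.80 and 4.85 in WT arrays, with its highest value in KO array 3. Tyms, thymidylate synthase, read 5.11, 5.15 and 5.14 in KO arrays, against 4.75, 4.71 and 5.18 in WT arrays. WT array 3 stood with the KO arrays for this gene, and the change was 0.25 (limma adjusted p = 0.381).

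Plk1, a kinase that drives entry into and passage through mitosis, had the largest positive change. It read 5.30, 5.45 and 5.67 in KO arrays, against 4.82, 5.07 and 5.11 in WT arrays. All KO arrays lay above all WT arrays, a mean 1.39-fold higher (log2 change 0.47 ± 0.13 SE, limma adjusted p = 0.119). Without KO array 3 the change was 0.37, and leaving out any 1 array kept it between 0.37 and 0.56.

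For the mitotic cyclins and CDK1 the highest array was KO array 3, and none passed the test. Cdk1 read 4.58, 4.64 and 4.95 in KO arrays, against 4.43, 4.58 and 4.67 in WT arrays. Ccna2, cyclin A, read 4.84, 4.87 and 5.53 in KO arrays, against 4.66, 4.69 and 5.04 in WT arrays. Ccnb2, a cyclin B, read 5.02, 5.05 and 5.80 in KO arrays, against 5.20, 5.20 and 5.27 in WT arrays. For Ccnb2, KO arrays 1 and 2 lay below every WT array and KO array 3 above them, so that the mean change of 0.07 describes none of the 3. The changes of Cdk1 and Ccna2 were 0.17 ± 0.13 and 0.28 ± 0.20 (SE; limma adjusted p = 0.554 and 0.501). The Aurora kinase genes Aurka and Aurkb, which act at spindle poles and at centromeres, had changes of 0.00 and 0.01, and KO array 2 was highest for Aurka.

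Mki67, which encodes the proliferation antigen Ki-67, followed the same pattern. It read 5.21, 5.17 and 5.95 in KO arrays, against 5.38, 5.13 and 5.31 in WT arrays. KO arrays 1 and 2 lay within the WT range and KO array 3 lay above it. The change was 0.17 ± 0.20 (SE; limma adjusted p = 0.72), and it was -0.08 without KO array 3. Birc5, survivin, a subunit of the chromosomal passenger complex, read 4.20, 4.21 and 4.59 in KO arrays, against 3.94, 3.88 and 3.99 in WT arrays. Its groups did not overlap, with a change of 0.40 ± 0.13 (SE; limma adjusted p = 0.165), but the WT values lay around the dim filter of 3.90. Cdca8, borealin, a partner of survivin in that complex, had a change of 0.09. Cenpf, a kinetochore protein, had 4.00, 4.29 and 4.62 in KO arrays, against 4.24, 4.21 and 4.17 in WT arrays.

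Top2a, the topoisomerase that untangles sister chromatids, gave a reading that depends on the probe set. The brighter probe set read 5.07, 4.41 and 4.41 in KO arrays, against 4.36, 4.08 and 4.24 in WT arrays, with KO array 1 highest. It lists no RefSeq transcript of the gene. The other probe set lists one, and read 3.98, 4.02 and 4.69 in KO arrays, against 4.00, 3.97 and 4.04 in WT arrays. There KO array 3 stood alone and KO array 1 lay in the WT range. The changes were 0.41 in the brighter and 0.22 in the other probe set.

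Of the 5 checkpoint and anaphase genes 4 were tested and none passed, and Bub1b had the only positive change. Bub1b, a checkpoint kinase homologue that delays anaphase, had a change of 0.24 ± 0.14 (SE; limma adjusted p = 0.40). Mad2l1, Cdc20 and Ube2c had changes of -0.06, -0.10 and -0.14, where Mad2l1 encodes a checkpoint protein, and Cdc20 and Ube2c an activator and a ubiquitin-conjugating enzyme of the anaphase-promoting complex. KO array 1 was the lowest of the 6 arrays for Cdc20, at 4.86, and for Ube2c, at 5.38. Bub1, not tested because of its dim signal, had a mean of 3.12 ± 0.63 in KO arrays and 3.15 ± 0.24 in WT arrays (SD, n = 3 each). Cenpe, also not tested, was highest in KO array 3. Ndc80, which couples kinetochores to microtubules, read 3.73, 4.29 and 3.92 in KO arrays, against 4.14, 4.13 and 4.37 in WT arrays, with a change of -0.23 (limma adjusted p = 0.489).

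Among the spindle genes, Kif11, the motor that pushes spindle poles apart, read 4.33, 3.95 and 4.62 in KO arrays, against 4.29, 3.97 and 3.78 in WT arrays. The arrays of both genotypes were spread widely, and the change of 0.28 had a 95% interval of -0.16 to 0.72. The kinesins of cytokinesis Kif20a and Kif23, the midzone crosslinker Prc1, and the spindle proteins Nusap1 and Tpx2 had changes between -0.06 and 0.09. Of these, KO array 3 was the highest of the 6 in Kif20a, Kif23, Nusap1 and Prc1.

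Lists of other cell cycle genes, which were chosen with earlier results of these data known, were read in the same fit. Of 46 further mitotic genes 34 were tested, and 0 were called either way, with a median change of 0.01. Without KO array 2, 1 of them was called, with 1019 of 16497 genes called over all, against 164 with that array. KO array 3 was the highest array in 26 of the 46, of which 12 were under the dim filter, against 21.2% of all genes tested. The lowest p-values were those of Pttg1, securin, which holds separase back, at -0.28, and Bub3, a checkpoint protein, at -0.30 (limma adjusted p = 0.194 and 0.202). Of 12 genes of the G1 cyclins and kinases and their partners 0 were called. Cdk6, a kinase partner of cyclin D, read 6.73, 6.49 and 6.85 in KO arrays, against 6.23, 6.22 and 6.20 in WT arrays. Its change was 0.48 ± 0.11 (SE; limma adjusted p = 0.0829). Without KO array 2 it was among the 1019 genes called (change 0.58, limma adjusted p = 0.0225). E2f3 had a change of -0.27 (limma adjusted p = 0.177).

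Of 22 further replication genes, 20 were tested. Of these, 1 was called lower and 0 higher, against 0.673% and 0.321% of all genes tested. Changes were positive in 9 of the 22 and negative in 13. The gene called was Rpa2, a subunit of the protein that coats single-stranded DNA. It read 6.997, 7.025 and 7.079 in KO arrays, against 7.663, 7.601 and 7.451 in WT arrays (log2 change -0.54 ± 0.09 SE, limma adjusted p = 0.0426). The median change of the 20 was -0.07. KO arrays lay below WT arrays in 6 of the 20, among them Rpa2, the dUTPase gene Dut, the polymerase epsilon gene Pole and the GINS gene Gins1, and 13.8% of all genes tested did so.

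Of 18 genes of cell cycle arrest and quiescence, 1 was called lower and 0 higher, against 0.673% and 0.321% of all genes tested. Changes were positive in 7 of the 18 and negative in 11. The gene called was Cdkn2c, which encodes an INK4 inhibitor of CDK4 and CDK6. It read 6.89, 6.68 and 6.59 in KO arrays, against 7.26, 7.30 and 7.34 in WT arrays (log2 change -0.58 ± 0.10 SE, limma adjusted p = 0.0449). Both this call and that of Rpa2 lie close to the threshold. Both were lost, with adjusted p-values of 0.0504 to 0.228, after median centring, with no variance trend, with replicate number as a block, and without KO array 3 or any 1 of the WT arrays. That of Rpa2 was also lost after a repeated quantile normalization and without KO array 1. Without KO array 2, 2 genes of the arrest list were called, with 1019 of 16497 genes called over all.

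**Figure D4:**
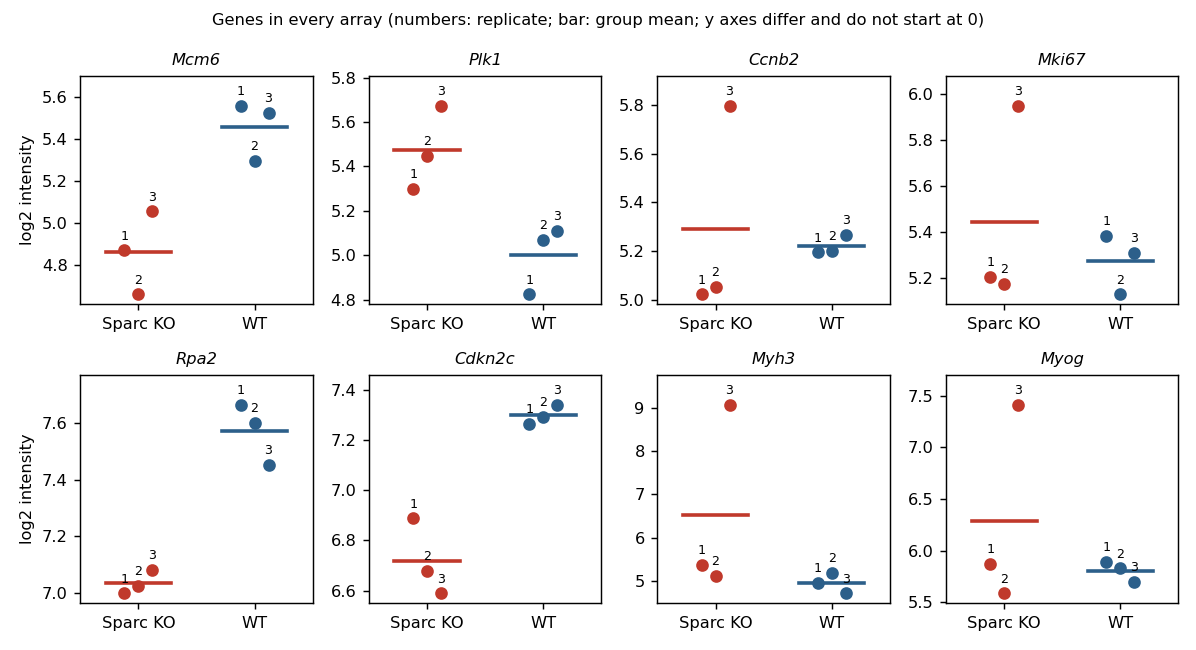
Log2 intensity (vertical axes, which differ and do not start at 0) of 8 genes in each array, KO left and WT right, with replicate numbers beside the points and bars at the group means. Mcm6, Rpa2 and Cdkn2c lie lower and Plk1 higher in all KO arrays, and KO array 3 stands alone in Ccnb2, Mki67, Myh3 and Myog.

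Markers of other cell types were read from the same arrays, and 0 genes of any of these lists were called. The satellite cell and regeneration list (10 of 10 genes above the dim filter, 9 with a positive change) had a mean distance from the WT mean of 0.03, 0.02 and 0.98 in KO arrays 1, 2 and 3, against 0.00, 0.02 and -0.03 in WT arrays. Its summed log2 level was 63.05 to 72.58 in KO and 62.56 to 63.05 in WT arrays. Myh3, embryonic myosin, read 5.36, 5.11 and 9.07 in KO arrays, against 4.95, 5.18 and 4.71 in WT arrays. Myog, the myogenic differentiation factor, read 5.87, 5.59 and 7.41 in KO arrays, against 5.89, 5.83 and 5.70 in WT arrays. Myh8, perinatal myosin, and Ncam1, an adhesion molecule, likewise read 8.22 and 8.74 in KO array 3 and no higher than 6.95 and 7.31 in the other arrays of either genotype. These 4 genes carried most of the list's mean in KO array 3. The satellite cell markers differed less. Pax7, the satellite cell factor, read 6.22, 6.35 and 6.49 in KO arrays, against 6.35, 6.29 and 6.36 in WT arrays. Calcr, a marker of quiescent satellite cells, read 4.43, 4.87 and 4.55 in KO arrays, against 5.01, 4.81 and 4.99 in WT arrays, and had the list's only negative change (-0.32, limma adjusted p = 0.26). Chodl had a change of 0.32 (limma adjusted p = 0.364). The array with the high mitotic genes was also the array with the high embryonic myosin, and the part of either in the other was not tested.

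The macrophage list had a different order. Its mean distance was 1.06, 0.36 and 0.30 in KO arrays 1, 2 and 3, against -0.04, 0.00 and 0.05 in WT arrays, and all 14 genes had positive changes (summed log2 level 105.4 to 116.1 in KO and 100.6 to 101.9 in WT arrays). Its smallest p-values were those of Cd68 and Lyz2, with changes of 0.99 and 0.85 (limma adjusted p = 0.0858 and 0.106). The fibroblast list stood at 0.86, 0.22 and 1.14 in KO arrays, against -0.05, -0.01 and 0.06 in WT arrays (summed log2 level 86.75 to 95.05 in KO and 84.31 to 85.35 in WT arrays), with 9 of 9 genes positive. Col1a2, a chain of collagen I, and Pi16 had changes of 0.71 and 0.62 (limma adjusted p = 0.149 and 0.153). The high mean of KO array 3 was uneven over the list. Postn, with the list's largest change, read 9.65, 8.22 and 12.18 in KO arrays, against a mean of 7.89 in WT arrays. In KO array 3 Dcn read 12.56, below the WT arrays at 12.68, 12.81 and 12.81. Cd34 read 9.93 there, within the WT values of 9.87, 10.12 and 10.04. The list's other genes lay above every WT array in KO array 3. Without KO array 2, when 1019 genes were called over all against 164 with it, 2 macrophage and 3 fibroblast markers were called. Endothelial markers stood at 0.24, 0.28 and -0.38 in KO arrays, against -0.04, 0.06 and -0.02 in WT arrays. Of 6 lymphocyte markers 3 were under the dim filter, and their mean lay between -0.02 and 0.02 in KO arrays and between -0.03 and 0.02 in WT arrays. The mitotic genes stood at 0.00 in KO array 1, and whether they follow the macrophage markers was not tested. Adipocyte markers stood at -0.59, -0.81 and -0.78 in KO arrays, against -0.78, 0.32 and 0.47 in WT arrays, and 4 erythroid markers at -0.33, -0.13 and -0.27 in KO arrays, against -0.08, 0.06 and 0.02 in WT arrays. The genes with the smallest p-values in the other lists were Pecam1 and Tie1 (endothelial, changes of 0.19 and 0.12), Cd3e and Cd2 (lymphocyte, 0.24 and -0.15), Retn and Lep (adipocyte, -1.44 and -1.15), Alas2 and Slc4a1 (erythroid, -0.84 and -0.13), and Ckm and Ttn (muscle, -0.28 and 0.47). Their limma adjusted p-values ran from 0.0788 for Alas2 to 0.654 for Tie1. Of the adipocyte markers 2 were called without WT array 1, when 32 of 16482 genes were called over all. Of the erythroid markers 1 was called with array weights, when 329 of 16487 genes were. Without KO array 2, when 1019 of 16497 genes were called, 1 erythroid and 1 muscle marker were called. No marker was listed at an intensity of 0. The part of these cells in the cell cycle readings was not tested.

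**Figure D5:**
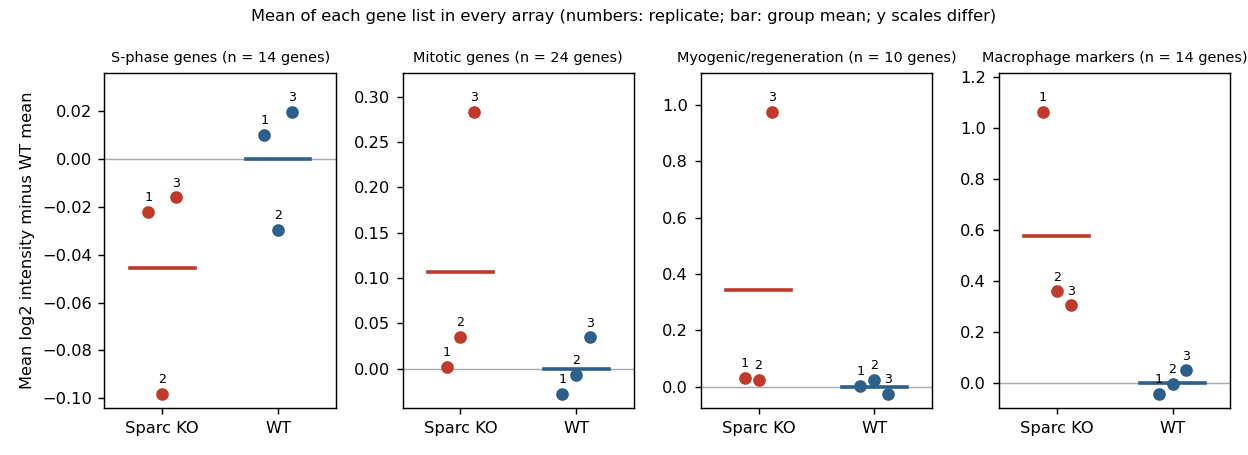
Mean log2 intensity minus the WT mean (vertical axes, which differ) over 14 S-phase genes, 24 mitotic genes, 10 satellite cell and regeneration genes and 14 macrophage markers, for each KO (left) and WT (right) array, with replicate numbers and bars at group means. KO array 3 stands at 0.28 for the mitotic genes and 0.98 for the regeneration genes, and KO array 1 at 1.06 for the macrophage markers.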

How the data were processed

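The deposited values are intensities on a linear scale, which the submitters' processing notes credit to RMA and to Affymetrix Expression Console (version 1.3.0.187), and they ran from 1.59 to 13565.8. RMA as published corrects background, normalizes arrays together and summarises probes, and differences between dim probe sets come out compressed. The files hold no detection calls. The sources used here name no genome build for the array. The number of arrays limits the precision. All 6 value columns were used. Log2 was taken with no offset.

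Gene symbols came from the platform's annotation. Of 35556 probe sets 21789 had 1 symbol, 1621 had several and 12146 were unnamed. The brightest single-symbol probe set stood for a gene. Genes whose mean lay under the 25% point of the array's probe sets (3.90) were not tested. Genotypes were compared in limma 3.58.1 (R 4.3.3; lmFit, eBayes with trend, two-sided), with Benjamini-Hochberg adjustment over 16487 genes and a threshold of 0.05. Changes are KO over WT, and ± after a change is the moderated SE. With 3 arrays a group, each p-value sets a change against a variance estimated from these samples and moderated over all genes tested.

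The genes, lists and tests were chosen with earlier results of these data known. Full values were given for the 4 smallest p-values, the 4 largest changes each way and for Mki67, Top2a, Cdk1, Pcna and Mcm2, and for others to show the pattern by array. In other lists the called genes, or else the 2 with the smallest p, were named. Others, among them Myh3, Myh8, Myog, Ncam1, Pax7, Postn, Dcn and Cd34, were chosen after their values were seen. The fit was also run on simulated data with the same spread in both genotypes, unlike these arrays. No result here rests on that run. Alternatives in filter, normalization, variance model, array weights, probe sets, offset, replicate block and left-out arrays were run. Promoter sequences are from RefSeq, build GRCm38.p6.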

Additional observations from a re-analysis of the deposited data

How the results depend on the processing

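Under every alternative run, 0 of the cell cycle genes tested were called higher and 0 lower. A stricter dim filter, at 5.40, left 11 of them in the test. Mcm6, Plk1, Birc5 and Top2a were not among these and could not be called there. The mean difference of the 38 genes does not use the fit, so changes of filter, variance model, array weights and block could not move it. It was 0.01 after median centring and ran from -0.01 to 0.08 with 1 array left out. The count over all genes, 164, was 103 after median centring and 329 with array weights, and it ran from 27 to 1019 with 1 array left out (27, 30 and 32 without WT arrays 3, 2 and 1, and 1019 without KO array 2). Median centring moved the median change by -0.04. Pcna turned to -0.048 with array weights and ran from -0.079 to 0.14 with 1 array left out, the low end without KO array 1. Mki67 ran from -0.083 to 0.30, the low end without KO array 3. The limma adjusted p of Mcm6 ran from 0.0515 to 0.283 and that of Plk1 from 0.0756 to 0.367 over the 16 alternatives that tested them. Rpa2 was called in 8 of 17 alternatives and Cdkn2c in 10 of 17. The cause was not tested. Same-numbered KO and WT arrays had correlations of their deviations of 0.009, 0.082 and -0.02. With 3 arrays a group these cannot tell whether the arrays were paired, and the labels name no pairing. With replicate number as a block, 123 genes were called over all and 0 of the cell cycle genes either way, and Rpa2 and Cdkn2c had adjusted p-values of 0.0848 and 0.082. Using for Pcna, Tk1 and Top2a the probe set with a RefSeq transcript on the gene's own chromosome, a choice made after seeing the data, gave a mean difference of 0.05. The mean over the 27 brighter genes was also chosen after seeing the data. With matches on the forward strand alone, CHR letters were in 66.7% of mitotic and 15.4% of S-phase promoters, against 11.6% of all, and CCAAT in 57.1% and 38.5%, against 21.1% of all.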

Other observations

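The brighter Top2a probe set shares its only listed clone accession with 2 probe sets that carry both Top2a and Hibadh as symbols and were left out by the single-symbol rule. One of these read 9.89, 8.96 and 8.84 in KO arrays 1, 2 and 3, against 8.90, 8.75 and 8.70 in WT arrays, with KO array 1 highest, as in the brighter Top2a probe set. On the array as a whole, 96.9% of 21698 single-symbol probe sets carried a gene on the chromosome most common among their 5 neighbours by number on each side. Of the 41 probe sets of the cell cycle genes, 2 did not, those used for Pcna and Tk1.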
